A study of Homo sapiens with 6 samples.

Results

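The genes described here are 38 genes of cell attachment in LNCaP cells: 25 integrin chains and 13 proteoglycans of the syndecan, glypican and testican families. Members were defined by symbol, out of 18239 genes on the array, with earlier results of these data known. The rule took every gene whose single listed symbol is ITGA or ITGB followed by a number or 1 capital letter. It also took SDC1 to SDC4, GPC1 to GPC6 and SPOCK1 to SPOCK3. The symbol ITGA2B falls outside that rule. LNCaP cells are a human prostate adenocarcinoma line that responds to androgen, and urolithin A is a metabolite that the gut flora forms from dietary ellagitannins, as found in pomegranate and walnut. Cells were kept for 24 h with 40 µM urolithin A, or were untreated by the sample titles and given saline by the treatment protocol. All cells were plated in 35 mm wells in F12 medium with 7% fetal bovine serum, and RNA of each of the 6 samples, 3 urolithin A and 3 untreated, was hybridised to an Affymetrix Human Genome U219 array. No source used here names the solvent, and all 6 samples come from this single line. The labels do not say that the 3 samples of a group were separate cultures, so p-values measure only the scatter of these arrays, and that scatter may be technical.

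Integrins are receptors made of an alpha and a beta chain that bind laminins, collagens or fibronectin outside the cell and couple them, through talin and kindlin, to actin inside. Syndecans, which span the membrane, and glypicans, which are held in it by a lipid anchor, carry heparan sulfate chains that bind growth factors and matrix proteins, and syndecans act together with integrins in adhesion. Testicans, the SPOCK genes, code for proteoglycans that are secreted into the matrix, so for these 3 genes the name "cell-surface" applies only loosely. In the normal prostate, laminin-binding integrins attach basal cells to the basement membrane.

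Values are on the log2 scale, with the median of the 3 untreated arrays subtracted from each probe set by the authors. A gene's value is the mean of its probe sets, and a change is the mean of the urolithin A arrays minus the mean of the untreated arrays. The centring removed the levels, so these data cannot show which of the 38 transcripts LNCaP cells contained, nor how abundant they were. For the same reason the presence of luminal, leukocyte, endothelial, fibroblast and basal markers could not be checked. In differences, 1 of 8 luminal markers rose and 3 fell, KLK2 among them at a log2 change of -2.07, and 1 of 5 leukocyte markers fell (LCP1, at -1.33). None of 4 endothelial, 5 fibroblast and 2 basal markers passed the test. The arrays also differed in genes that the groups do not explain: HLA-DRA stood at -0.017, 1.17 and 3.09 in urolithin A replicates 1, 2 and 3, and at 1.01, 0.032 and -0.023 in untreated replicates 1, 2 and 3.

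After urolithin A, 3 of the 38 genes changed at an adjusted p under 0.05, which is 7.89% of them, against 10.2% of all 18239 genes. A single gene rose and 2 fell, where 4.85% of all genes rose and 5.31% fell. All 3 are proteoglycans. SDC4, the syndecan of focal adhesions, rose 2.22-fold, SPOCK1, which codes for testican-1, fell 4.75-fold, and the glypican gene GPC6 fell 1.30-fold. Of the 25 integrin genes none passed. The median size of change was 0.081 over the 38 genes and 0.0998 over all genes, on the log2 scale. The urolithin A and untreated arrays did not overlap in 7 of the 38 genes (18.4%), against 29.3% of all genes.

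**Figure D1:**
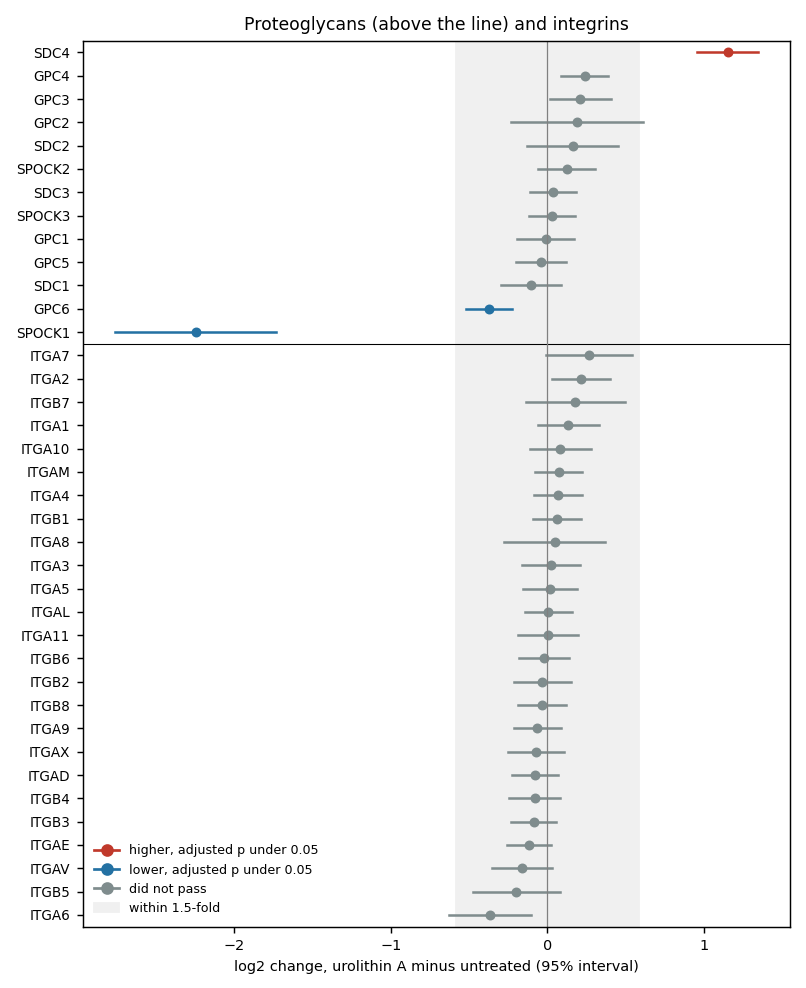
Log2 change (urolithin A minus untreated, x axis) of each of the 38 genes with its 95% interval from limma, proteoglycans above the line and integrins under it; the grey band marks changes within 1.5-fold. SDC4 at 1.15 and SPOCK1 at -2.25 lie outside the band with their whole intervals, GPC6 is called inside it at -0.37, and of the 25 integrins only the interval of ITGA6 crosses its edge.

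Syndecan-4 is a heparan sulfate proteoglycan that gathers in focal adhesions, where it binds fibronectin beside integrins and recruits protein kinase C alpha. SDC4 stood at 1.19, 1.09 and 1.24 in urolithin A replicates 1, 2 and 3, against 0.17, 0 and -0.10 in untreated replicates 1, 2 and 3. The lowest urolithin A array was thus well above the highest untreated one, and the rise exceeded the spread of either group. The log2 change was 1.15 (SE 0.086, 95% interval 0.96 to 1.35, adjusted p = 0.000319 by limma), the 55th in size among all genes. SDC4 is covered by 3 probe sets, and each rose on its own, by 1.34, 1.30 and 0.81. The call held in all 6 fits that leave out an array, with changes between 1.09 and 1.23.

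The other 3 syndecan genes did not pass. SDC1, the main syndecan of epithelia, had a log2 change of -0.10 (95% interval -0.30 to 0.089), SDC2, a syndecan of mesenchymal cells, one of 0.16 (-0.13 to 0.45), and SDC3, a syndecan of nerve and muscle, one of 0.037 (-0.11 to 0.18). None of these intervals reaches the lower end of that of SDC4. The urolithin A arrays of SDC1 lay close together, between -0.18 and -0.12, while its untreated arrays ran from -0.18 to 0.11. SDC2 spread more among the untreated arrays (SD 0.27) than among the urolithin A arrays (SD 0.072, n = 3 each).

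Testican-1, the product of SPOCK1, is a secreted proteoglycan with chondroitin and heparan sulfate chains. SPOCK1 stood at -2.53, -2.23 and -2.23 in urolithin A replicates 1, 2 and 3, and at -0.64, 0 and 0.39 in untreated replicates 1, 2 and 3. Although its untreated arrays spread more widely than those of any other of the 38 genes (SD 0.52), the highest urolithin A array was still far under the lowest untreated one. The log2 change was -2.25 (SE 0.23, 95% interval -2.76 to -1.73, adjusted p = 0.000918), the 4th in size among all genes. It rests on 1 probe set. Without any single array the change stayed between -2.53 and -2.01 and the call held, and without limma's moderation the gene did not pass (adjusted p = 0.0568). The androgen-induced kallikrein gene KLK2 had the same order among the untreated arrays, at -0.26, -0.00080 and 0.22, and fell as well. KLK3 and TMPRSS2 had that order too, while the luminal markers FOLH1, ACP3, KRT8, KRT18 and HOXB13 did not. The part of these genes in the values of SPOCK1 was not tested. The other testicans, SPOCK2 and SPOCK3, had changes of 0.12 (95% interval -0.060 to 0.31) and 0.030 (-0.12 to 0.18) and did not pass. SPOCK2 has 6 probe sets, whose changes ranged from -0.20 to 0.52, and SPOCK3 has 10, from -0.070 to 0.20, with no probe set of either gene called.

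Glypicans hold heparan sulfate at the cell surface and tune Wnt, Hedgehog and growth factor signals. GPC6 stood at -0.32, -0.30 and -0.40 in urolithin A replicates 1, 2 and 3, against 0.042, 0.062 and -0.00045 in untreated replicates 1, 2 and 3, with both groups tightly packed and apart. Its log2 change was -0.37 (SE 0.064, 95% interval -0.52 to -0.23, adjusted p = 0.00915). The 4 probe sets of GPC6 did not move alike, and the narrow spread of each group is that of their mean. In urolithin A replicates 1, 2 and 3, 1 probe set stood at -0.89, -0.77 and -1.59, and another at 0.023, 0.041 and 0.41. A pair of the 4 probe sets fell on their own, by 1.15 (adjusted p = 0.0109) and by 0.52 (adjusted p = 0.0438), while the others had changes of -0.011 and 0.18 that did not pass. With the median of the probe sets in place of the mean, the change was -0.19 and no longer passed (adjusted p = 0.103). Which transcripts each probe set detects was not examined. The call also ended with urolithin A replicates 1 and 2 against untreated replicates 2 and 3 (change -0.34, adjusted p = 0.084), although it held without each single array.

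**Figure D2:**
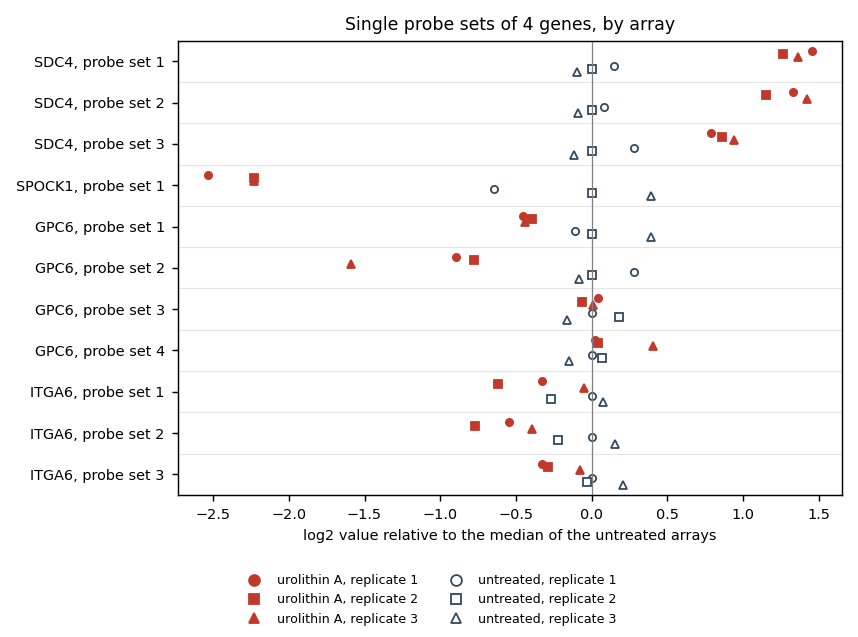
Log2 value of each probe set (y axis) of SDC4, SPOCK1, GPC6 and ITGA6 on each array (x axis, relative to the median of the untreated arrays), urolithin A in filled and untreated in open symbols. All 3 SDC4 probe sets are shifted to higher values, the single SPOCK1 probe set lies between -2.53 and -2.23 after urolithin A, and only 2 of the 4 GPC6 probe sets are shifted.

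The other 5 glypican genes did not pass. GPC4, which can take part in Wnt and fibroblast growth factor signalling, came nearest, at 0.26, 0.15 and 0.19 in urolithin A replicates 1, 2 and 3, against -0.018, 0 and -0.096 in untreated replicates 1, 2 and 3. Its groups did not overlap, and its log2 change was 0.24 (95% interval 0.087 to 0.39, adjusted p = 0.0572). The 3 probe sets of GPC4 gave 0.51, 0.11 and 0.095, none of them called, and the groups overlapped in all but the first. GPC3, best known as a protein of fetal liver and liver cancer, stood at 0.22, 0.30 and 0.31 in the urolithin A arrays and at -0.10, 0.18 and 0.12 in the untreated arrays. Its groups did not overlap either, and the change of 0.21 did not pass (95% interval 0.017 to 0.40, adjusted p = 0.171). The 3 probe sets of GPC3 gave 0.36, 0.23 and 0.031, and the groups overlapped in all but the second. GPC3 and GPC4 are neighbours on the X chromosome. GPC5, the neighbour of GPC6, had a change of -0.043 (95% interval -0.20 to 0.12), and GPC1 one of -0.0095 (-0.19 to 0.17). GPC2 had the widest interval of the glypicans, -0.23 to 0.61 around a change of 0.19, and its untreated arrays ran from -0.20 to 0.59.

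No integrin gene passed limma's test, where 10.2% of all genes did. At an unadjusted p under 0.05 there were 2 of 25, ITGA6 and ITGA2, against 24.1% of all genes. Without moderation 0 of 25 passed after adjustment, but only 560 of all 18239 genes did. That share is too low for 0 of 25 to set the integrins apart. Changes ran from -0.37 to 0.27, with 13 genes above 0 and 12 below, and in 17 of the 25 the size was under 0.1. The median size was 0.073 in the integrins and 0.0998 in all genes. The 95% interval lay within a 1.5-fold change in either direction for 24 of the 25, and within 2-fold for all 25. Among all 18239 genes it lay within 1.5-fold for 16610 and within 2-fold for 17960. A transcript near background would also give a small change, and the centred values cannot tell such genes from expressed ones.

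Among the laminin-binding alpha chains, ITGA6 had the lowest change of the integrins. It pairs with ITGB1, or in hemidesmosomes with ITGB4. ITGA6 stood at -0.40, -0.56 and -0.17 in urolithin A replicates 1, 2 and 3, and at 0, -0.17 and 0.14 in untreated replicates 1, 2 and 3. Urolithin A replicate 3 and untreated replicate 2 lay side by side, so the groups met at their edges. The log2 change was -0.37 (SE 0.12, 95% interval -0.63 to -0.10, adjusted p = 0.0861). All 3 probe sets of ITGA6 had changes under 0, and 1 fell on its own, by 0.55 (adjusted p = 0.0371). It was the only 1 called of 77 integrin probe sets, against 8.37% of all 49386 probe sets. Without urolithin A replicate 3 the gene passed, at a change of -0.47 (adjusted p = 0.0427), and it passed in none of the other 5 fits that leave out an array. ITGA7, known mainly from muscle, stood at 0.44, 0.11 and 0.26 in the urolithin A arrays and at 0, -0.19 and 0.21 in the untreated arrays, which overlapped, and its change of 0.27 did not pass (95% interval -0.0059 to 0.54, adjusted p = 0.218). ITGA3, a laminin receptor chain of many epithelia, had a change of 0.023 (95% interval -0.16 to 0.21).

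**Figure D3:**
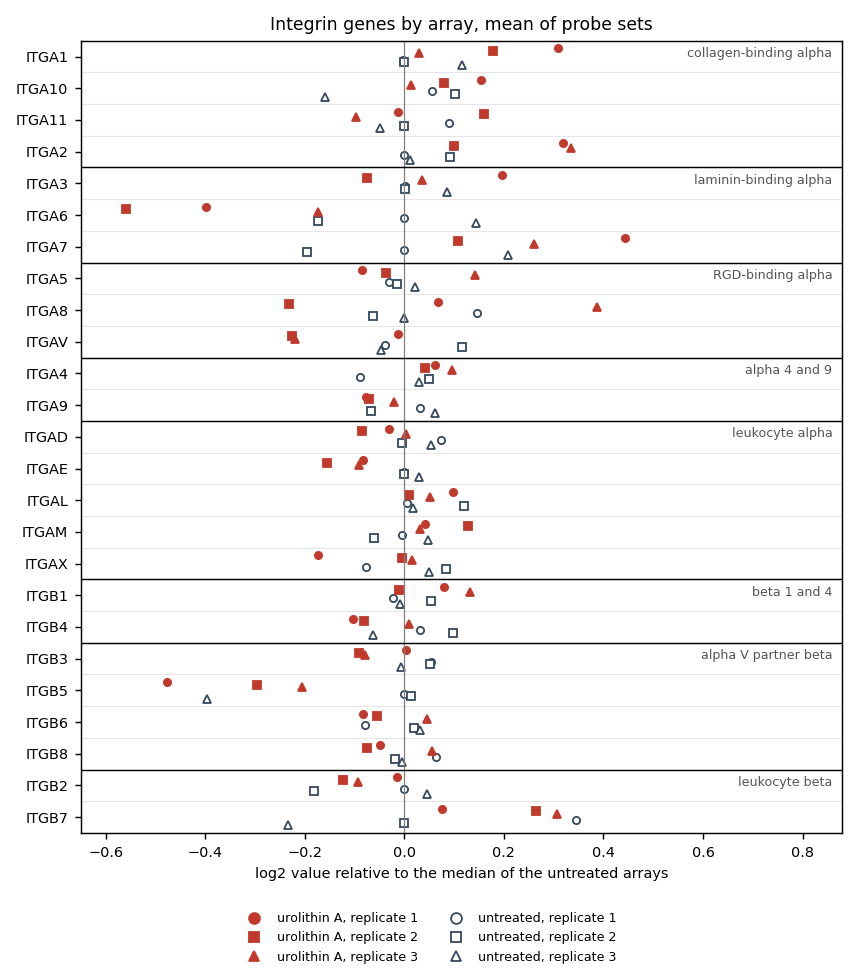
Log2 value of each of the 25 integrin genes on each array (x axis, relative to the median of the untreated arrays, mean of the gene's probe sets), grouped by ligand or partner class, urolithin A in filled and untreated in open symbols. Only ITGA2 and ITGAE have groups that do not overlap (8% of the 25, against 29.3% of all genes), and ITGA6 has the lowest urolithin A arrays, down to -0.56.

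The collagen-binding alpha chains all had changes above 0, none of which passed. ITGA2, a collagen receptor chain of epithelia and platelets, stood at 0.32, 0.099 and 0.33 in urolithin A replicates 1, 2 and 3, against 0, 0.091 and 0.011 in untreated replicates 1, 2 and 3. The groups did not overlap, by a narrow gap between urolithin A replicate 2 and untreated replicate 2, and the change was 0.22 (95% interval 0.032 to 0.40, adjusted p = 0.141). Its 2 probe sets gave 0.45 and -0.018. ITGA1 had a change of 0.13, ITGA10, a chain of cartilage, 0.082 and ITGA11, a chain of fibroblasts, 0.0037.

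Of the alpha chains that bind the RGD motif of fibronectin and vitronectin, ITGAV had a change of -0.16 (95% interval -0.35 to 0.029), ITGA5, the main fibronectin receptor chain, 0.015 (-0.16 to 0.19) and ITGA8, known from kidney development, 0.046 (-0.28 to 0.37). The urolithin A arrays of ITGA8 spread from -0.23 to 0.39. The 4 probe sets of ITGA5 fell on both sides of 0, from -0.21 to 0.27. ITGAV pairs with several beta chains, of which ITGB5 had a change of -0.20, ITGB3 -0.089, ITGB8 -0.036 and ITGB6 -0.021. ITGB5 stood at -0.48, -0.30 and -0.21 in the urolithin A arrays and at 0, 0.012 and -0.40 in the untreated arrays. Untreated replicate 3 fell among the urolithin A arrays, and without that array the change was -0.33 (adjusted p = 0.0868).

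ITGB1, the most widely shared beta chain, stood at 0.080, -0.011 and 0.13 in urolithin A replicates 1, 2 and 3, against -0.023, 0.053 and -0.010 in untreated replicates 1, 2 and 3. Its change of 0.060 had a 95% interval of -0.094 to 0.21, with the groups overlapping. ITGB4, the laminin-binding partner of ITGA6 in hemidesmosomes, had a change of -0.080 (-0.24 to 0.083) over 8 probe sets, none called. ITGA4 and ITGA9, which bind VCAM1 and tenascin, had changes of 0.070 and -0.065.

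The chains known mainly from leukocytes had changes between -0.12 and 0.18, none of which passed. ITGAL was at 0.0058, ITGAM at 0.073, ITGAX at -0.073, ITGAD at -0.079 and ITGAE, which binds E-cadherin, at -0.12. ITGAE had groups that did not overlap, at -0.083, -0.15 and -0.091 in the urolithin A arrays and 0, -0.0015 and 0.030 in the untreated arrays, and it did not pass (adjusted p = 0.288). Among the beta chains, ITGB2 had a change of -0.031, and ITGB7 one of 0.18 with untreated arrays from -0.23 to 0.34. The leukocyte marker PTPRC did not pass at a change of 0.28 (adjusted p = 0.208), with urolithin A arrays at -0.0015, 0.41 and 0.40 and untreated arrays at 0.12, -0.18 and 0.014. Among the other leukocyte markers LCP1 fell, at a change of -1.33 (adjusted p = 0.000963). CORO1A, CD3E and CD14 had changes of 0.061, -0.010 and -0.018 and did not pass. All 6 samples come from the LNCaP line alone, and the part of these genes in the integrin values was not tested.

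At the level of single probe sets, 7 of 124 passed (5.65%), against 8.37% of all 49386. These were the 3 of SDC4, the 1 of SPOCK1, 2 of GPC6 and 1 of ITGA6. Of the 31 genes with more than 1 probe set, 22 had probe sets on both sides of 0. The other 7 genes, SPOCK1, ITGB5, ITGA7 and ITGAE among them, rest on 1 probe set. The median SD between arrays of a group was 0.069 with urolithin A and 0.077 without for the 38 genes, and 0.091 and 0.089 for all genes.

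The 4 lists of partner genes were read in the same fit. Of 56 measured ligands of integrins, 1 rose and 4 fell (8.93% called, with 10.2% in all genes), and the list's median change was 0.0025. LAMA1, a laminin chain of basement membranes, stood at -3.77, -3.27 and -3.53 in urolithin A replicates 1, 2 and 3, and at -0.035, 0 and 0.14 in untreated replicates 1, 2 and 3, the lowest change of the list. LAMC1, the gamma chain shared by most laminins, fell by 0.81 on the log2 scale (adjusted p = 0.000713), and FN1, the fibronectin gene, by 0.78 (adjusted p = 0.000992), with 7 of its 8 probe sets called. FN1 lay between -0.78 and -0.71 in the urolithin A arrays and between -0.087 and 0.17 in the untreated arrays. The laminin beta chain gene LAMB2 rose by 0.60 (adjusted p = 0.0175), and not without urolithin A replicate 3 (adjusted p = 0.0502). COL4A5, a collagen IV chain named after its value was seen, fell by 0.29 (adjusted p = 0.0412), a call that held only without untreated replicate 3 among the 6 fits that leave out an array (adjusted p up to 0.132). Of the 3 COL4A5 probe sets 1 was called. LAMA1 and LAMB2 each rest on 1 probe set. These ligands are named because they passed, and the list as a whole was called no more often than all genes. No integrin chain passed, and the difference between the lists was not tested.

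Of 42 measured genes of the adhesion complex and of the tetraspanins and other partners of integrins, 2 rose and 2 fell. That is 9.52%, near the 10.2% of all genes, and the median change was -0.064. KANK1, which binds talin at the rim of focal adhesions, stood at 0.68, 0.69 and 0.72 in the urolithin A arrays, against 0.065, 0.053 and -0.030 in the untreated arrays. The rise was 1.59-fold (adjusted p = 0.000772), and 1 of the 2 KANK1 probe sets was called. ITGB3BP fell 1.42-fold (adjusted p = 0.00398), with all 3 of its probe sets lower. It was listed for its binding to the tail of ITGB3, and its product is also a kinetochore protein. The tetraspanin gene CD63 rose by 0.28 (adjusted p = 0.0317) and the tensin gene TNS3 fell by 0.38 (adjusted p = 0.0365), and leaving out any array ended both calls (adjusted p up to 0.0978 for CD63 and 0.113 for TNS3). Neither of the 2 CD63 probe sets was called on its own, and 1 of the 3 TNS3 probe sets was. The talin gene TLN1 had a change of 0.20 and the integrin-linked kinase gene ILK one of 0.0047, and neither passed.

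**Figure D4:**
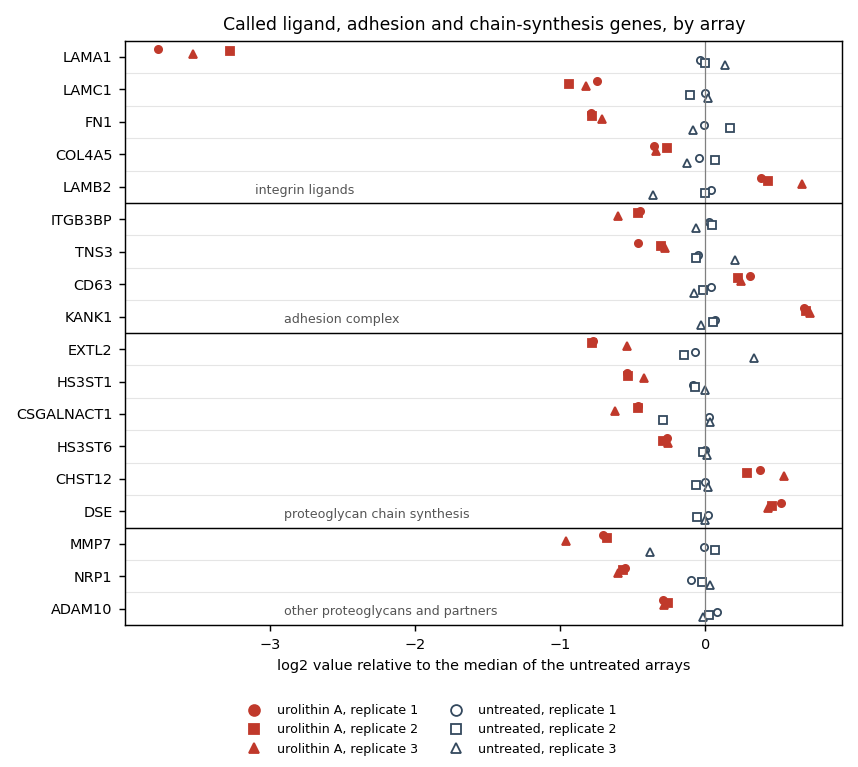
Log2 value on each array (x axis, relative to the median of the untreated arrays) of the 18 called genes of the 4 partner lists, grouped by list, urolithin A in filled and untreated in open symbols. LAMA1 lies between -3.77 and -3.27 after urolithin A, and the other genes are shifted by less than 1 on the log2 scale.

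Of 51 measured enzymes and transporters that build, sulfate or trim proteoglycan chains, 2 rose and 4 fell. That is 11.8%, near the 10.2% of all genes, and the median change was 0.013. DSE, an epimerase that turns chondroitin into dermatan sulfate, rose by 0.48 (adjusted p = 0.00284), with 2 of its 4 probe sets called. The chondroitin sulfotransferase gene CHST12 rose by 0.42 (adjusted p = 0.0138), a call that ended without untreated replicate 2 (adjusted p = 0.0542). EXTL2, a glycosyltransferase acting on the linker of the chains, fell by 0.74 (adjusted p = 0.01), with all 4 of its probe sets lower, and HS3ST1, a heparan sulfate sulfotransferase, fell by 0.45 (adjusted p = 0.00511). EXTL2 stood at -0.77, -0.78 and -0.54 in urolithin A replicates 1, 2 and 3, and at -0.071, -0.14 and 0.33 in untreated replicates 1, 2 and 3. CSGALNACT1, which starts chondroitin chains, and HS3ST6 were named after their values were seen. They fell by 0.44 and 0.27, and their calls ended in 5 and 6 of the 6 fits that leave out an array, at adjusted p up to 0.097 and 0.0808, with the exception of untreated replicate 2 for CSGALNACT1. Of the 3 CSGALNACT1 probe sets 1 was called, and the single HS3ST6 probe set was not.

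Of 31 measured other proteoglycans, syndecan-binding proteins and shedding proteases, none rose and 3 fell. That is 9.68%, near the 10.2% of all genes, and the median change was -0.018. NRP1, a receptor of semaphorins and vascular growth factor that can carry a sugar chain, fell by 0.54 (adjusted p = 0.0019), and 3 of its 6 probe sets were called. The matrix protease gene MMP7 fell by 0.68 (adjusted p = 0.0134), and not without untreated replicate 1 (adjusted p = 0.0526). Of the 4 MMP7 probe sets 2 were called, and the changes of all 4 ran from -1.05 to 0.045. ADAM10, a protease that sheds surface proteins, fell by 0.30 (adjusted p = 0.0183), with 2 of its 4 probe sets called. The gene's call was kept only without untreated replicate 3 or urolithin A replicate 2 (adjusted p up to 0.0668 without the others). SDCBP, which codes for syntenin, an adaptor bound to the tail of syndecans, did not pass at a change of -0.25 (adjusted p = 0.114), with urolithin A arrays at -0.30, -0.21 and -0.21 and untreated arrays at -0.14, 0.0024 and 0.16.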

How the data were processed

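The authors deposited log2 values for 49386 probe sets. RMA is the tool that the submitters' processing notes name, with no version. The 3 untreated arrays had a median of exactly 0 in all 49386, so the deposited log2 values had this median subtracted; these were read as base 2, which RMA uses. Probe sets were named through the platform's annotation table. Of them 45253 have 1 symbol and were averaged by gene, 1327 have several, 2713 have none and 93 are array controls. No probe set with several symbols named one of the 38 genes. No coordinates or sequences are given, because no source used here names a genome build or holds the probes.

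A moderated linear model (limma 3.58.1, R 4.3.3) with only a treatment term was run per gene (lmFit, eBayes, two-sided, Benjamini-Hochberg adjustment over 18239 genes, threshold 0.05), and each probe set likewise over all 49386. The fit was tested on simulated data. With 3 arrays a group the number of arrays limits precision. Batches were not examined, as scan dates and plate positions were not used here. The genes and the 4 partner lists were chosen with earlier results of these data known. All 38 genes are reported. Of each partner list the text names up to 4 called genes with the smallest adjusted p, and a few others as stated. Alternatives were a replicate block, medians of probe sets, probe sets without names ending in _s_at or _x_at, array weights, centring of arrays, a prior with trend and robust fitting, no moderation, a stricter threshold of 0.01, a minimum of 1.5-fold, single probe sets and each array left out; a fit without urolithin A replicate 3 and untreated replicate 1 was added after the data were seen. List members without a single-symbol probe set were not analysed here.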

Additional observations from a re-analysis of the deposited data

How the results depend on the processing

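Of the 38 genes, SDC4 stayed called under every alternative, and SPOCK1 under every one but no moderation. The calls of the 38 genes numbered 2 to 4 under all alternatives, and 3 or 4 without a single array. GPC6 was lost with the median of probe sets, with the added fit and with the 1.5-fold minimum. The replicate numbers did not pair the arrays throughout: same-numbered arrays had correlated deviations of 0.078, 0.023 and 0.20. Urolithin A replicates 1 and 3 correlated best with the untreated array of their own number, and urolithin A replicate 2 with untreated replicate 1 (0.049). The labels state no pairing, and these values do not settle whether there was one. With the replicate block 4 of the 38 genes were called, 1 of them an integrin (ITGA6, adjusted p = 0.0196), and the block gave 1863 calls among all genes. Without a single array 0 or 1 integrins were called, 1063 to 1309 of all genes, 2 or 3 of the adhesion list, 3 to 5 of the ligands and 1 to 3 of the other proteoglycans and partners.

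All genes called numbered 560 without moderation, 705 in the added fit of urolithin A replicates 1 and 2 against untreated replicates 2 and 3, 642 at a threshold of 0.01 and 449 with the 1.5-fold minimum, against 1854. The adhesion list had 2 calls with the trended and robust prior, without moderation, in the added fit and at 0.01, and 1 with the fold minimum. The ligands had 3 without moderation, in the added fit and at 0.01. Chain synthesis had 3 without moderation, 2 at 0.01 and 1 with the fold minimum, and the other proteoglycans had 1 in the added fit, at 0.01 and with the fold minimum. At 0.01, 4 probe sets of the 38 genes were called. The threshold of 0.01 and the fold minimum only narrow the same fit, so their 642 and 449 calls all lie among the 1854. The added fit has fewer arrays. For the alternatives that change the fit, the cause of the lower counts was not tested.

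Signs turned only in genes that did not pass and in 1 probe set of GPC6 (0.18). Without probe sets of shared names, GPC1 was at 0.015, ITGA5 at -0.18, ITGAL at -0.036 and ITGAX at 0.022, and ITGAX at 0.020 with medians of probe sets. Array centring gave -0.0064 for ITGA11 and -0.0043 for ITGAL, and array weights -0.0014 for ITGAL. The added fit gave -0.068 for GPC2, -0.064 for ITGA5, -0.051 for ITGA8 and -0.015 for ITGAL. Over the fits that leave out an array, the extremes were -0.077 and 0.00051 for GPC5, -0.068 and 0.061 for ITGA11, -0.049 and 0.087 for ITGA3, -0.052 and 0.061 for ITGA5, -0.016 and 0.042 for ITGAL, -0.10 and 0.014 for ITGB2, and -0.060 and 0.0044 for ITGB6. Without untreated replicate 1, ITGAL was at -0.015. Without untreated replicate 2, GPC5 was at 0.00051 and ITGA11 at -0.0031. Without untreated replicate 3, GPC1 was at 0.056, ITGA11 at -0.028, ITGAL at -0.0092 and ITGB2 at 0.014. Without urolithin A replicate 1, ITGA3 was at -0.049, ITGAL at -0.016 and ITGB6 at 0.0044. Without urolithin A replicate 2, GPC1 was at 0.018 and ITGA11 at -0.068, and without urolithin A replicate 3, ITGA5 was at -0.052 and ITGA8 at -0.11. Single probe sets on the other side of 0 from their gene were at 0.015 in GPC1, -0.049 in ITGA11, -0.018 in ITGA2, -0.26 in ITGA3, -0.035 in ITGA4, -0.14 and -0.21 in ITGA5, 0.29 in ITGA9, 0.020 in ITGAD, -0.0061 and -0.072 in ITGAL, -0.073 in ITGAM, 0.18 in ITGAV, 0.14 and 0.0022 in ITGAX, -0.090 and -0.057 in ITGB1, 0.049, 0.043 and 0.045 in ITGB3, 0.16 and 0.083 in ITGB4, 0.0056 in ITGB6, 0.16 in ITGB8, -0.0061 in SDC2, -0.12 in SDC3, -0.20 in SPOCK2, and -0.024, -0.070, -0.062 and -0.019 in SPOCK3. None of these turned values passed, and signal over background could not be examined on centred values.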
